A study of Arabidopsis thaliana with 6 samples.

Results

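Pectin acetylesterases are enzymes of the plant cell wall that remove acetyl groups from pectin, the gel-forming polysaccharide rich in galacturonic acid. Acetyl groups are added to pectin in the Golgi before secretion, and their later removal in the wall changes how pectin binds calcium and how readily other enzymes can cut it. In Arabidopsis thaliana the enzymes are encoded by a small gene family, and the transcripts of 4 of its genes are described here in seedlings in which the root regulator PLT2 was activated. The members were found by locus: 10 pectin acetylesterase loci were listed, and 4 of them (AT1G57590, AT3G05910, AT3G09410 and AT5G26670) each have 1 probe set that the platform's probe table pairs with that gene alone. The other 6 listed loci, AT2G46930 (PAE3), AT3G62060 (PAE6), AT4G19410 (PAE7), AT4G19420 (PAE8), AT5G23870 (PAE9) and AT5G45280 (PAE11), were not analysed here. The 4 genes stand among 17504 probe sets with a gene and 38408 probe sets in all.

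The family was chosen from a comparison whose results were already known, with the large fall of AT1G57590 in view. Its changes between dexamethasone and mock are therefore given as a description, with standard errors and without p-values, and nothing is read from how many of the listed genes changed. Which listed genes pass the threshold given below is part of that description and is not a test of the family. A pair of further family loci, AT1G09550 and AT3G09405, were not on the list. They were added as members of the same family, also with earlier results of the comparison known, though not with values of these loci in view, and the result of the fit is given for them.

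The 6 arrays measured RNA of whole 35S::PLT2-GR seedlings. Here PLT2, a PLETHORA protein with AP2 domains that regulates transcription, is expressed under the 35S promoter, active in most tissues. It is joined to the hormone-binding part of the glucocorticoid receptor, so that dexamethasone controls when the fusion can act in the nucleus. Seedlings 4 days old went into liquid medium overnight in flasks of about 50, and then received 10 µM dexamethasone (3 flasks) or the same volume of the solvent DMSO (mock, 3 flasks) for 6 h. Both groups carry the transgene, each flask pools its seedlings, the number of independent lines is not given in the sources used here, and no dexamethasone-treated seedlings without the fusion were analysed here. Effects of the hormone and of the fusion therefore cannot be told apart. Values are the authors' log2 probe set values, on which a difference of 1 is a doubling. Array medians lay between 5.44 and 5.49 in dexamethasone arrays and between 5.48 and 5.53 in mock arrays over the probe sets with a gene. The seedling label was checked against marker genes, of which 2 of 5 listed for photosynthesis and 1 of 5 listed for root were measured. The photosynthesis genes RCA and LHCB4.1 averaged 10.8 and 9.95 in dexamethasone arrays and 11.1 and 10.2 in mock arrays (n = 3 each). The root beta-glucosidase gene PYK10 averaged 11.9 in dexamethasone arrays and 12.0 in mock arrays (n = 3 each). Leaf and root transcripts were thus both present, the root part resting on PYK10 alone. In whole seedlings, fewer cells of a type and less RNA per cell cannot be told apart.

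The question of the comparison is how transcript levels differ between dexamethasone and mock treatment of 6 h in seedlings that carry the fusion. Of the 4 listed pectin acetylesterase genes, 3 fell, none rose and AT5G26670 did not pass the threshold, an adjusted p of 0.05 in a limma fit of all probe sets with a gene. In the same fit 18.6% of probe sets passed, 9.54% as falls. The groups did not overlap for 3 of the 4 genes, and for 38.1% of all probe sets. Because the choice of the family used this comparison, these shares are given side by side only. The sizes of the changes were unequal, from 4.05-fold lower for AT1G57590 to 1.15-fold lower for AT5G26670, which did not pass, and the median change of the 4 was -0.75 on the log2 scale, against 0.02 over all probe sets with a gene.

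AT1G57590, the gene with the lowest log2 change of all 17504 probe sets, had log2 values of 3.56, 4.37 and 4.68 in dexamethasone seedlings, against 6.12, 6.32 and 6.24 in mock seedlings. All dexamethasone arrays were far below all mock arrays, and the gap between the nearest pair of arrays was 1.43. The change was -2.02 (SE 0.27, 95% interval -2.65 to -1.39), a 4.05-fold lower level. The dexamethasone arrays differed among themselves (SD 0.58, n = 3) much more than the mock arrays (SD 0.10, n = 3). Set against the mock mean, dexamethasone replicates 1, 2 and 3 differed by -2.66, -1.85 and -1.54 on the log2 scale, so replicate 1 was the lowest. In rank terms this probe set stood at percentiles 33.4, 39.4 and 42.0 of the probe sets with a gene in the dexamethasone arrays and at percentiles 57.8, 60.7 and 59.5 in the mock arrays. Without dexamethasone replicate 1 the change was -1.69, and without replicate 3 it was -2.26.

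AT3G05910 had log2 values of 8.16, 8.26 and 8.06 in dexamethasone seedlings, against 9.03, 8.99 and 9.15 in mock seedlings. The arrays of each group lay close together, and the groups were separated by 0.73. The SD was 0.10 in dexamethasone arrays and 0.08 in mock arrays (n = 3 each), and the change was -0.90 (SE 0.10, 95% interval -1.13 to -0.67), or 1.86-fold lower. Its probe set was at percentiles 85.6 to 87.4 in dexamethasone arrays and 93.5 to 94.4 in mock arrays, so this fall lay in the upper part of the measured range. Among all probe sets with a gene, 2.57% had a lower log2 change.

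AT3G09410 had log2 values of 6.50, 5.92 and 6.14 in dexamethasone seedlings, against 6.85, 6.82 and 6.68 in mock seedlings. The groups did not overlap, but dexamethasone replicate 1 was only 0.18 below the lowest mock array. The change was -0.60 (SE 0.15, 95% interval -0.96 to -0.23), or 1.51-fold lower, with an SD of 0.29 in dexamethasone arrays and 0.09 in mock arrays (n = 3 each). This call was near the threshold. It was lost without dexamethasone replicate 2 (change -0.46), dexamethasone replicate 3 (-0.57), mock replicate 1 (-0.56), mock replicate 2 (-0.58) or mock replicate 3 (-0.65), and also with the replicate number as a block, where the change is the same -0.60 by construction.

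AT5G26670 had log2 values of 6.99, 6.88 and 7.20 in dexamethasone seedlings, against 7.35, 7.16 and 7.16 in mock seedlings. Dexamethasone replicate 3 was above 2 of the mock arrays, so the groups overlapped. The difference was -0.20 (SE 0.12), and its 95% interval ran from -0.47 to 0.08. The interval includes 0. RefSeq lists 4 transcripts for this gene, 2 each for AT3G05910 and AT3G09410, and 1 for AT1G57590, and 1 probe set per gene cannot separate them.

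**Figure D1:**
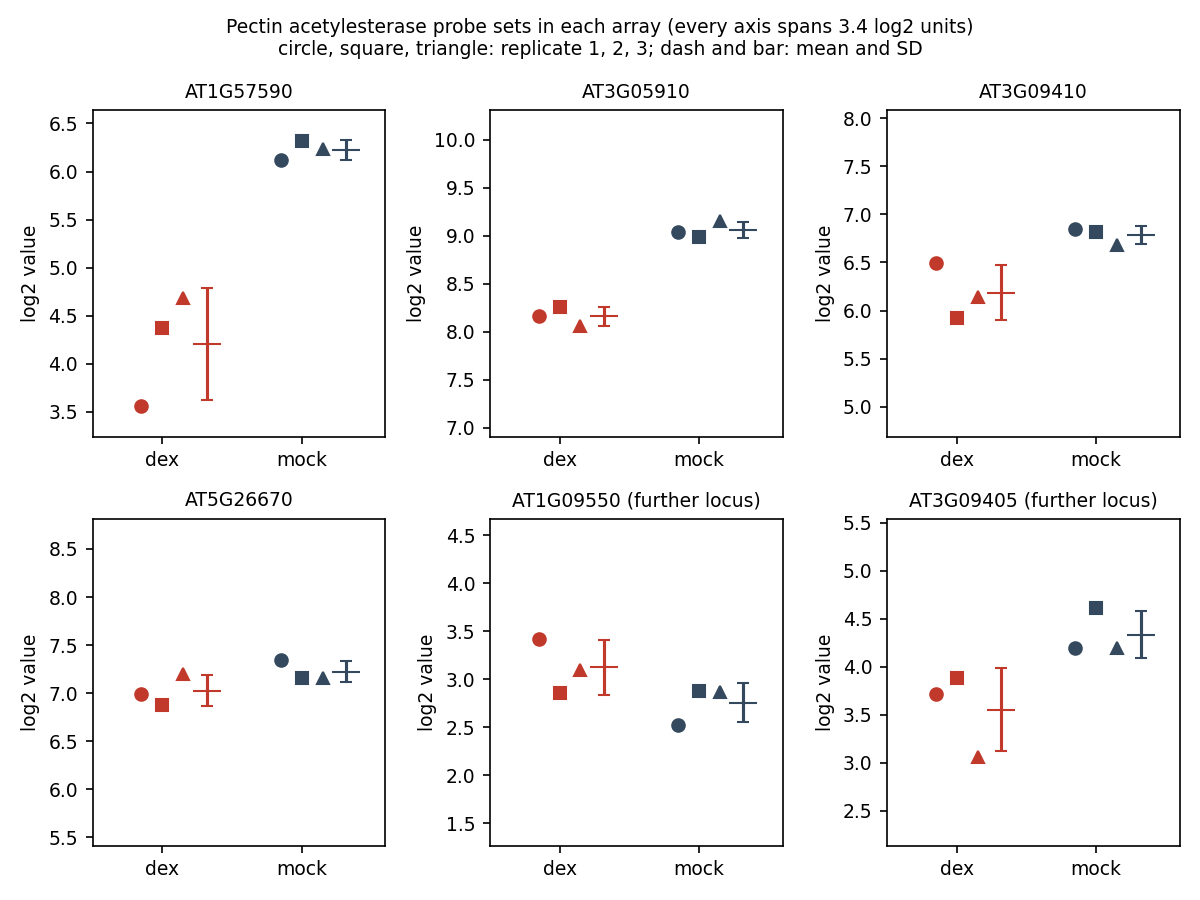
Log2 values (vertical axis, 3.4 units high in every panel) of the 4 listed genes and the 2 further loci in each array, dexamethasone left and mock right, with replicates 1, 2 and 3 as circle, square and triangle and the group mean with its SD beside them. AT1G57590 shows the widest gap and the widest spread among dexamethasone arrays (SD 0.58), AT3G05910 a smaller gap with tight groups, and AT5G26670 overlapping groups.

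The array with the lowest value was not the same for the 4 genes. Dexamethasone replicate 1 was the lowest array for AT1G57590 (3.56) but the highest of its group for AT3G09410 (6.50). Dexamethasone replicate 2 was the lowest array for AT3G09410 and AT5G26670, and dexamethasone replicate 3 for AT3G05910. Dexamethasone replicates 1 and 2 were each below every mock array for all 4 genes, and replicate 3 for AT1G57590, AT3G05910 and AT3G09410. The share of all probe sets for which single arrays lie so was not counted here, so nothing is read from this.

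Neither of the 2 further family loci passed the threshold. AT3G09405 had log2 values of 3.71, 3.88 and 3.06 in dexamethasone seedlings, against 4.20, 4.62 and 4.19 in mock seedlings. All dexamethasone arrays were lower than all mock arrays, and dexamethasone replicate 3 was the lowest. The difference was -0.78 (SE 0.23), but it did not pass the threshold (limma, adjusted p 0.0558). With the replicate number as a block the adjusted p was 0.0342, and over all settings tried it ranged from 0.0328 to 0.153. In RefSeq's TAIR10.1 annotation AT3G09405 and AT3G09410 are direct neighbours whose ends overlap by 37 bases, and whether reads of probes in one gene include signal of the other was not tested. AT1G09550 had log2 values of 3.42, 2.85 and 3.10 in dexamethasone seedlings, against 2.52, 2.88 and 2.87 in mock seedlings. Its groups overlapped, its difference was 0.37 (SE 0.17, adjusted p 0.19 by limma), and in mock arrays it lay between percentiles 20.2 and 26.4 of the probe sets with a gene. Of the 6 pectin acetylesterase genes with a probe set, AT1G09550 was the only one whose difference was above 0. Over all 17504 probe sets with a gene, 8199 had a difference below 0. Nothing is read from the signs of the 6 genes, as the family was chosen with results known.

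**Figure D2:**
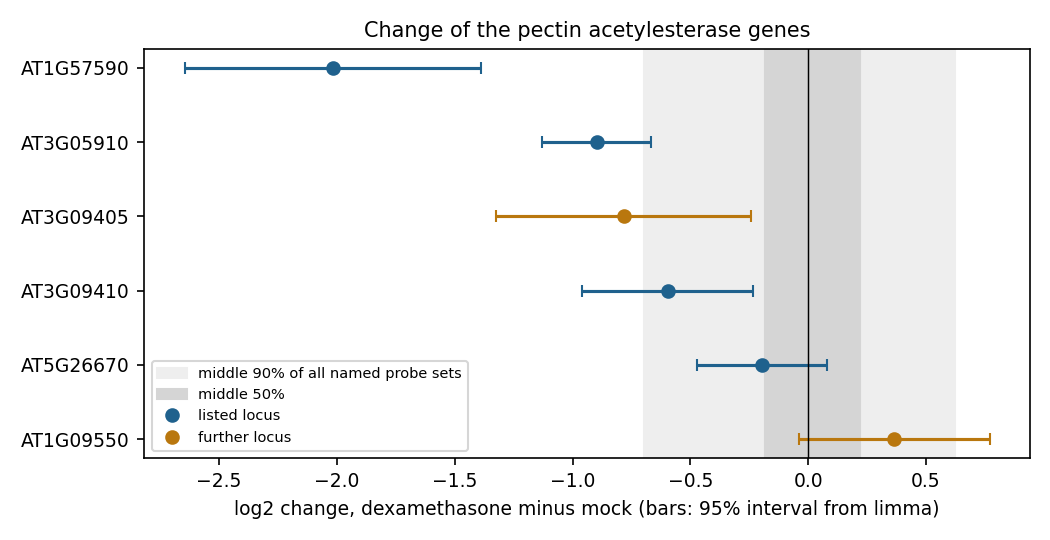
Log2 change, dexamethasone minus mock (horizontal axis), with its 95% interval for the 4 listed genes and the 2 further loci, over grey bands for the middle 50% (-0.18 to 0.22) and the middle 90% (-0.70 to 0.62) of all probe sets with a gene. AT1G57590 lies outside the wider band with its whole interval, and the interval of AT5G26670 includes 0.

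Of 7 listed root hair markers 2 were measured, the expansin genes EXPA7 and EXPA18, and both fell, against 9.54% falls among all probe sets with a gene. The marker list was also chosen with earlier results of these data known. Its count and this share are therefore given side by side only, and the adjusted p-values below are a description. EXPA18 had 4.47, 5.34 and 4.66 in dexamethasone arrays, against 6.28, 6.10 and 6.13 in mock arrays, a change of -1.34 (SE 0.22, adjusted p 0.00755 by limma), and EXPA7 had 4.74, 5.21 and 4.99 in dexamethasone arrays, against 6.40, 6.19 and 6.03 in mock arrays, a change of -1.23 (SE 0.15, adjusted p 0.00286 by limma). The nearest arrays of the groups were 0.76 apart for EXPA18 and 0.82 apart for EXPA7. The SD was 0.46 in dexamethasone arrays and 0.09 in mock arrays for EXPA18, and 0.23 and 0.19 for EXPA7 (n = 3 each). The summed log2 level of both markers was 9.22 to 10.6 in dexamethasone arrays and 12.2 to 12.7 in mock arrays. For both, as for AT1G57590, dexamethasone replicate 1 was the lowest array, but the order of the other dexamethasone arrays differed. Replicate 3 was below replicate 2 for both markers, while for AT1G57590 replicate 2 (4.37) was below replicate 3 (4.68). Among the leaf and root markers, the differences were -0.32 for RCA (adjusted p 0.0475 by limma, past the threshold, but not in any fit without 1 array), -0.23 for LHCB4.1 (adjusted p 0.12) and -0.05 for PYK10 (adjusted p 0.763). The part of root hairs or of any other cell type in the falls of the pectin acetylesterase genes was not tested.

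The 5 genes whose profile over the 6 arrays was most like that of AT1G57590, by Pearson's r, were AT3G20370 (r = 0.9987), AT1G16022 (0.9986), the dehydrin gene LTI30 (0.9971), the glucosyltransferase gene GT72B1 (0.9965) and AT4G28650, also called PXL2 (0.9963). These values describe 6 arrays in groups of 3, and the difference between the groups sets most of each correlation. Their differences between the groups were smaller than that of AT1G57590, from -0.23 for AT3G20370 to -0.89 for AT4G28650. AT4G28650 has another probe set, with a difference of -0.91.

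Other pectin genes were counted from lists of loci, with the family of each locus taken from general knowledge, since the reference tables used here give most of them only as locus codes. These lists were also chosen with earlier results of these data known. Their counts and the shares over all probe sets are therefore given side by side only. Pectate lyases cut the backbone of pectin, preferably where it carries few methyl groups. Of 26 pectate lyase loci 23 were measured, of which 10 fell, 1 rose and 12 did not pass, against 9.54% falls and 9.04% rises among all probe sets with a gene. The median change of the 23 was -0.27 on the log2 scale, against 0.02 over all. AT1G67750 had 5.27, 5.48 and 5.34 in dexamethasone arrays, against 6.62, 6.57 and 6.64 in mock arrays, a change of -1.24 (SE 0.09, adjusted p 4.64e-04). AT5G48900 averaged 6.40 ± 0.15 in dexamethasone arrays and 7.57 ± 0.06 in mock arrays (SD, n = 3 each), 2.25-fold lower with an adjusted p of 9.77e-04 by limma. AT3G07010 averaged 6.53 ± 0.25 in dexamethasone arrays and 7.68 ± 0.13 in mock arrays (SD, n = 3 each), 2.22-fold lower with an adjusted p of 0.00309 by limma. The groups of these 3 genes did not overlap, and their calls were kept without any 1 array. The 1 pectate lyase gene that rose, AT3G53190, was named after its value was seen. It averaged 8.58 in dexamethasone arrays and 8.11 in mock arrays, a change of 0.47 (SE 0.11, adjusted p 0.0251 by limma), and that call was lost with the block (adjusted p 0.07) and in 4 of the 6 fits without 1 array. With the replicate number as a block 7 pectate lyase genes fell and none rose, and the same counts were found without dexamethasone replicate 1, without mock replicate 1 or without mock replicate 2. Of all 17504 probe sets with a gene, 1244 fell and 1173 rose with the block, against 1670 and 1582 in the full fit. Falls and rises numbered 1175 and 1108 without dexamethasone replicate 1 and 896 and 828 without mock replicate 1. Without mock replicate 2 they numbered 1076 and 941.

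Rhamnogalacturonan lyases cut the branched part of pectin, rhamnogalacturonan I. All 7 loci were measured, and 3 fell, none rose and 4 did not pass, against 9.54% falls among all probe sets with a gene, and the median change was -0.11, against 0.02 over all. AT2G22620 had 3.68, 4.16 and 3.03 in dexamethasone arrays, against 4.97, 4.84 and 4.75 in mock arrays, a change of -1.23 (SE 0.26, adjusted p 0.0201 by limma). The call of AT2G22620 was kept in only 2 of the 6 fits without 1 array. In the others its adjusted p was 0.0534 to 0.0693 by limma. AT4G24430 fell by 0.50 on the log2 scale (adjusted p 0.0141 by limma) and AT4G37950 by 0.46 (adjusted p 0.0483 by limma). Both were below the median of the probe sets with a gene. AT4G24430 was at percentiles 31.6 to 32.8 in dexamethasone arrays and 35.8 to 36.3 in mock arrays. AT4G37950 was at percentiles 12.1 to 16.6 in dexamethasone arrays and 21.7 to 27.2 in mock arrays. The call of AT4G37950 was lost with the replicate number as a block (adjusted p 0.103 by limma), in 4 other settings and in 5 of the 6 fits without 1 array, in which its change was -0.39 to -0.53. Without mock replicate 1 no gene of the list was called, although the changes were close to those in the full fit, -1.17 for AT2G22620 and -0.49 for AT4G24430. In the other fits without 1 array 1 to 3 genes were called, with 1 called without dexamethasone replicate 1, mock replicate 2 or mock replicate 3. Of all 17504 probe sets with a gene, 3252 were called in the full fit and 1724 without mock replicate 1. In the other fits without 1 array, 2017 to 2477 were called.

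Few genes that build or acetylate pectin were measured. Of 9 loci for synthesis of rhamnogalacturonan I, 3 were measured, all for rhamnosyltransferases that extend its backbone. AT3G02250 averaged 7.06 ± 0.10 in dexamethasone arrays and 7.45 ± 0.09 in mock arrays (SD, n = 3 each), a change of -0.39 with an adjusted p of 0.0353 by limma. That call was lost with the replicate number as a block (adjusted p 0.0672) and in 5 of the 6 fits that left out 1 array, where adjusted p was 0.0622 to 0.109 by limma. It was kept without dexamethasone replicate 2. AT5G15740 and AT3G26370 had differences of 0.20 and -0.15 and did not pass. AXY9 (AT3G03210), which takes part in acetylation of wall polysaccharides in the Golgi, was the 1 measured gene of 10 in the wall acetylation list, and its difference was -0.34 (SE 0.16, adjusted p 0.202 by limma). Of 17 beta-galactosidase loci, whose enzymes trim galactan side chains, BGAL15 and BGAL16 were measured, and neither passed, with differences of 0.43 (SE 0.36, adjusted p 0.475 by limma) and -0.07. The 12 loci for homogalacturonan synthesis had no probe set named for them and were not analysed here.

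**Figure D3:**
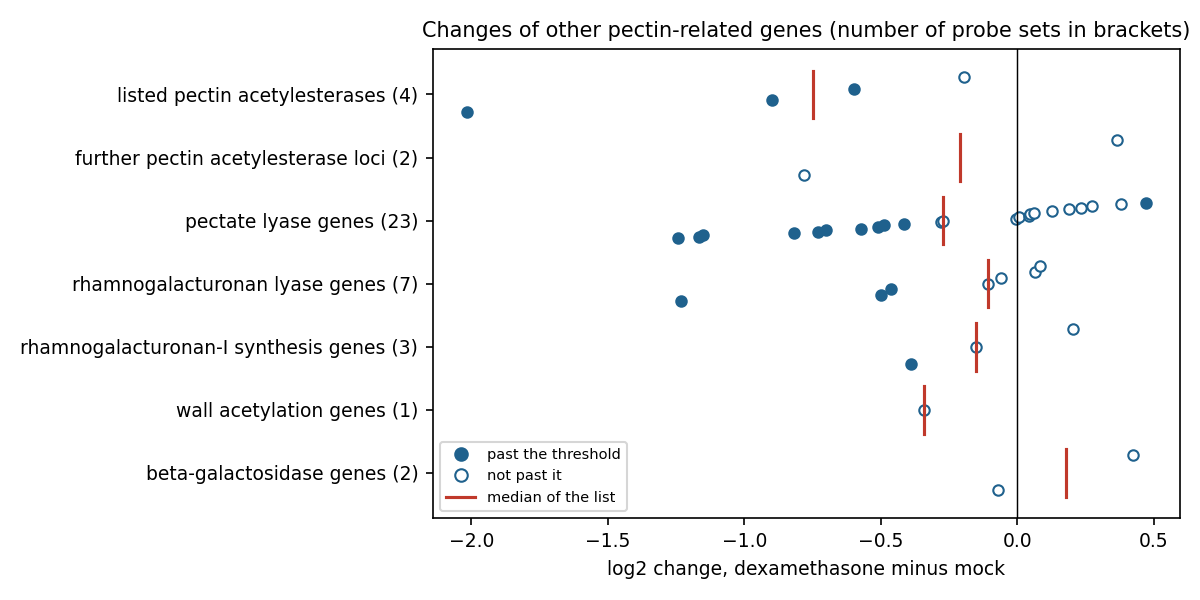
Log2 change, dexamethasone minus mock (horizontal axis), of every measured gene in each list, filled where past the threshold and open where not, with the list's median as a red line. The falls of the 10 called pectate lyase genes reach -1.24, and AT1G57590 at -2.02 lies to the left of every other gene shown.

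**Figure D4:**
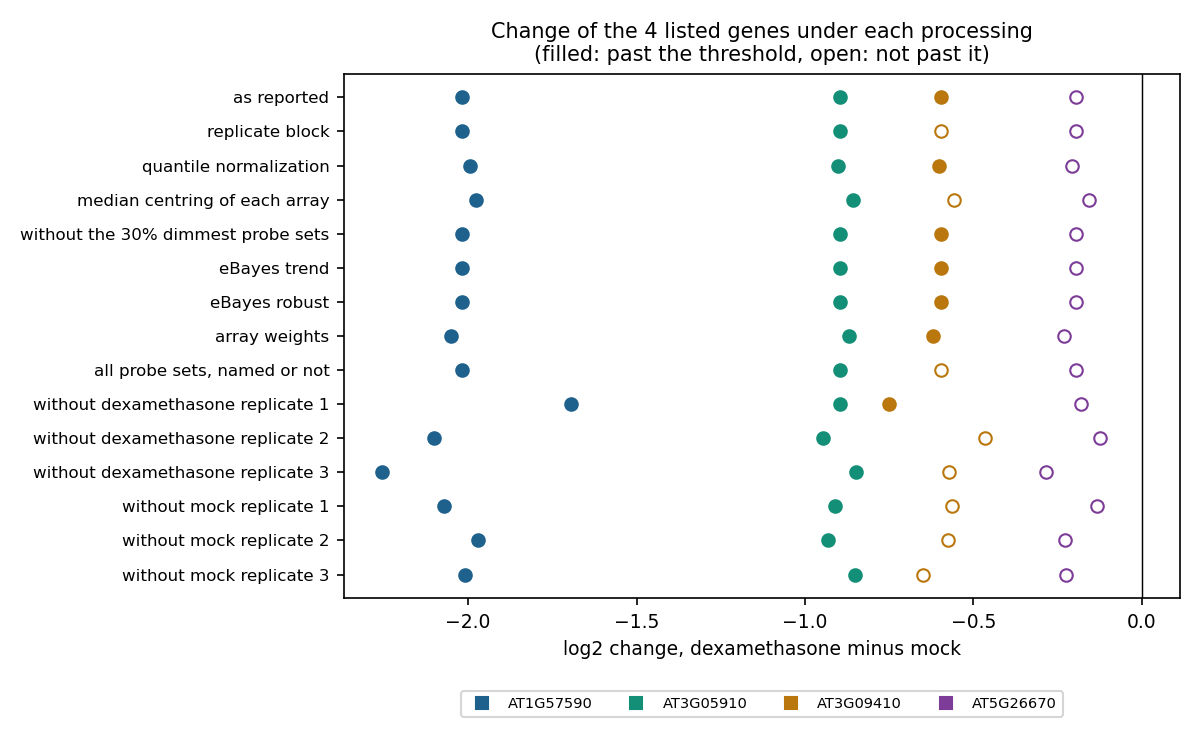
Log2 change of the 4 listed genes (horizontal axis) under the reported fit and 14 other settings (rows), filled where past the threshold and open where not. AT1G57590 and AT3G05910 are filled in each row, AT3G09410 is open in 8 rows, and AT5G26670 is open in each.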

How the data were processed

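Labelled RNA from 6 cultures was hybridised to 1 array each. The deposited table holds log2 values per probe set; the submitters' processing notes name RMA and limma 3.24.15 but not what each did. Genome build and probe summarisation: not given in the sources used here. Probe sets were joined to genes through the platform's probe table, then by gene ID to RefSeq loci of TAIR10.1 (16601 of 16746 probe sets with 1 gene matched); cross-hybridisation was not checked.

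Groups were compared as dexamethasone minus mock with limma 3.58.1 in R 4.3.3 (lmFit, eBayes, two-sided) on the deposited values, adjusted by Benjamini-Hochberg over the 17504 probe sets with a gene. The code was tested on data drawn with known changes. SE is moderated; SD is over 3 arrays; the number of arrays limits precision. The labels call the flasks biological replicates.

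The members and lists were chosen with earlier results of these data known. All listed members were named, and, from each list, up to 3 called genes with the largest change or, with none called, the gene with the smallest p. Deviations from the group means correlated at -0.00987, -0.0163 and 0.0305 between arrays of the same number, so numbers were not taken as pairs.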

Additional observations from a re-analysis of the deposited data

How the results depend on the processing

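The counts of calls and the changes of the genes named, but not the profile correlations or the division of pectate lyases by level, were recomputed with quantile normalization, with the replicate number as a block, with median centring, without the 30% dimmest probe sets, with an eBayes trend, robust eBayes, array weights, over all probe sets, at other thresholds and without each array. BGAL16, not called in any fit, had a difference of -0.19 to 0.014 without 1 array, above 0 without dexamethasone replicate 3; no other named gene changed sign. AT1G57590 and AT3G05910 kept their calls in all fits, and AT5G26670 was called in none. As the family was chosen with results of this comparison known, kept calls of its genes are a description only. Of the listed pectin acetylesterase genes, 1 passed with a log2 change of at least 1, and 2 to 3 without 1 array. AT3G09410 was not past the threshold with the block (-0.60), over all probe sets (-0.60) or with median centring (-0.56), nor in 5 of the 6 fits without 1 array, whose range was -0.75 to -0.46. The number of pectate lyase genes called was 11, and 7 with the block, 6 at an adjusted p of 0.01, 3 with a log2 change of at least 1, and 7 to 10 without 1 array. Rhamnogalacturonan lyases gave 3, and 1 with the trend, 0 at 0.01, 1 with the log2 minimum and 0 to 3 without 1 array. Rhamnogalacturonan I synthesis gave 1, and 0 with the block, median centring, all probe sets, 0.01 and the log2 minimum, and 0 to 1 without 1 array. Over all probe sets with a gene the count was 3252, and 2417 with the block, 3307 with median centring and 4348 with the trend. Of all 38408 probe sets, with a gene or not, 4870 were called. Over those with a gene the count was 1205 at 0.01, 630 with the log2 minimum, and 1724 to 2477 without 1 array. It was lowest without mock replicates 1 (1724), 2 (2017) and 3 (2119). Fits without 1 array have fewer arrays; otherwise the cause was not tested. Homogalacturonan synthesis was not run, having no probe set. AT1G09550, AT4G37950, AT3G01270 and BGAL15 were not in the fit without dim probe sets. That fit held 13 of the 23 pectate lyase genes and 5 of the 7 rhamnogalacturonan lyase genes. Signal over background was not analysed here, which limits the folds of dim genes.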

Other observations

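The pectate lyase genes were divided by level after their values were seen, by the mean over all 6 arrays, to which a gene's own change contributes. Of the 10 genes whose mean over all arrays was above the median of the probe sets with a gene, 8 fell, 1 rose and 1 did not pass, with a median change of -0.64. Of the 13 at or below that median, 2 fell, none rose and 11 did not pass, with a median change of 0.05. Over all probe sets with a gene, 12.9% of those above the median fell and 6.19% of those at or below it. The falls in the dimmer part were AT3G27400, with 4.68, 4.86 and 5.13 in dexamethasone arrays against 5.75, 5.76 and 5.60 in mock arrays, whose mock mean of 5.70 was above the median of 5.49, and AT3G01270, with 2.36, 2.26 and 2.12 in dexamethasone arrays against 2.57, 2.76 and 2.93 in mock arrays. The call of AT3G01270 was lost with the replicate number as a block (adjusted p 0.0806 by limma) and over all probe sets, with a gene or not (0.0535). It was kept in only 2 of the 6 fits without 1 array, and the gene was not in the fit without dim probe sets. The part of signal level in these counts was not tested.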
